A study of Homo sapiens with 12 samples.

Results

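SK/EPI, an epirubicin-resistant breast cancer line, was compared with SK-BR-3, the line it was raised from, over every gene of a deposited expression table. The comparison used 6 of the 12 RNA-seq libraries of the study, 3 of untreated SK-BR-3 cells and 3 of SK/EPI cells, both grown in RPMI-1640 medium with serum and neither given an siRNA. SK-BR-3 is an established human line of ERBB2-amplified breast carcinoma. SK/EPI was made from it by a long exposure, in stages, to rising amounts of epirubicin, an anthracycline that poisons DNA topoisomerase II. It is a single resistant line, and whether the drug was in the medium at harvest is not given in the sources used here, so the effects of the drug, of time in culture and of selection cannot be told apart. The other 6 libraries, SK/EPI cells given a control or a BCRP siRNA for 48 h, are in a second table, and only the 3 control ones (SK/EPI-siControl) are set beside the results below.

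The table holds 58735 genes, and the values are FPKM, reads per kilobase of exon scaled to the size of the library. They could be turned back into whole reads, and each SK-BR-3 library had between 15830381 and 19051182 of them on genes, each SK/EPI library between 17249081 and 18179410. The 15823 genes with enough reads were tested with limma on log2(FPKM + 1), and a gene is said to have risen or fallen in SK/EPI cells where its Benjamini-Hochberg adjusted p was under 0.05 and its log2 difference was at least 1 in size. The adjusted p tests a difference from 0, not from that size. By this rule 1245 genes rose, which is 7.87% of those tested, and 1033 fell, which is 6.53%. By the adjusted p alone 37.9% were higher and 37% lower in SK/EPI cells, 74.9% in all. These shares are the background for each count of a gene list below, unless another setting is named. With at least 10 reads required in every library, 13175 genes were left, of which 843 rose and 846 fell. Levels of a gene are given in FPKM for the 3 libraries of each line, SK-BR-3 first, or as the mean ± SD of the 3, and changes run from SK-BR-3 to SK/EPI cells. The labels do not say that the 3 libraries of a line came from separate cultures, so the p-values measure only the spread between these libraries.

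Markers of the labelled cell type were present in both lines. Of 11 markers of breast epithelium, 10 had a mean of at least 1 FPKM in each line, and the exception in both was CDH1. ERBB2, looked at after its values were seen, was at 662, 652 and 662 against 128, 135 and 136 FPKM. Of 16 leukocyte markers, the T cell genes CD3D and CD2, the B cell gene MS4A1 and the myeloid adaptor TYROBP had no read in any of the 6 libraries, and PTPRC had at most 3 reads in any of them. The summed level of the leukocyte list was 5.01 to 5.36 FPKM in SK-BR-3 cells and 32.5 to 34.6 FPKM in SK/EPI cells. Most of that came from CD14, a coreceptor for bacterial lipopolysaccharide, which was at 0.568, 0.470 and 0.501 against 26.6, 27.4 and 28.1 FPKM. For the 9 fibroblast markers the sum was 1.59 to 1.69 FPKM in SK-BR-3 cells and 1.42 to 1.59 FPKM in SK/EPI cells, with DCN and PDGFRA at 0 in all 6 libraries. The endothelial list summed to 6.70 to 7.01 FPKM in SK-BR-3 cells and 27.1 to 28.2 FPKM in SK/EPI cells. Nearly all of it was CDH5, the cadherin of endothelial junctions, at 6.61, 6.82 and 6.88 against 26.8, 27.9 and 27.8 FPKM. CD14 and CDH5 are given here after their values were seen.

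Luminal breast epithelium is defined by transcription factors such as GATA3, FOXA1 and SPDEF and by simple keratins, whereas basal and myoepithelial cells carry other keratins, TP63 and contractile proteins. Epithelial cells answer interferons through factors of the IRF family among others, which bind an interferon-stimulated response element in front of genes such as IFI6 and the IFITM family. The genes of MHC class II, which present peptides to helper T cells, are switched on by the coactivator CIITA at a promoter module that includes a CCAAT (Y) box. NF-kappaB acts at its own sites, called kappaB sites. Anthracyclines are reduced at their carbonyl group by aldo-keto and carbonyl reductases, a main route of their metabolism.

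The 250 bases before the RefSeq start of 6 genes that rose in SK/EPI cells are printed here because the immune results below turn on the groups they belong to, and they show where these promoter letters lie. The build is GRCh38.p14, each line runs 5′ to 3′ on the strand of its gene, and capitals mark the letters of the motif searched, on either strand. For IFI6, IFITM1 and IFITM3 it was GAAANNGAA, for CD74 and HLA-DRB1 CCAAT, and for TNFAIP3 GGGANTTTC.
IFI6, chr1:27672193-27672442, minus strand: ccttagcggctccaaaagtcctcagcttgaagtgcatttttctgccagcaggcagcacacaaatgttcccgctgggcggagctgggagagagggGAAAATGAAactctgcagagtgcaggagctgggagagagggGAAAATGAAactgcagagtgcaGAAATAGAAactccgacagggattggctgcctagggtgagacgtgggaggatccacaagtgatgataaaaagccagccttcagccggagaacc
IFITM1, chr11:313790-314039, plus strand: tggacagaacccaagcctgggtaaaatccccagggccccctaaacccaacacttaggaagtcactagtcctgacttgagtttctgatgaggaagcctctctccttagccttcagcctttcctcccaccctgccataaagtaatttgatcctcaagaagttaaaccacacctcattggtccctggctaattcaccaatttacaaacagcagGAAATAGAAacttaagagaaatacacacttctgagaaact
IFITM3, chr11:320861-321110, minus strand: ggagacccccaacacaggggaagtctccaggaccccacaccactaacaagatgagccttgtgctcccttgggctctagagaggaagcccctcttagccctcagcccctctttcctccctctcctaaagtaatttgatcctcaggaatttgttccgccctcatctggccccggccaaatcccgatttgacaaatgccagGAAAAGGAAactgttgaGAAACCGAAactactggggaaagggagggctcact
CD74, chr5:150412911-150413160, minus strand: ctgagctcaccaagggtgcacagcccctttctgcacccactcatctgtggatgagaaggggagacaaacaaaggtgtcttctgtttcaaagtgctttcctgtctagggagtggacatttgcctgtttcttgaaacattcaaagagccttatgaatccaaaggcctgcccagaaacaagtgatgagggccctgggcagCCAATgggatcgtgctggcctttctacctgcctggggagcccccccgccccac
HLA-DRB1, chr6:32589849-32590098, minus strand: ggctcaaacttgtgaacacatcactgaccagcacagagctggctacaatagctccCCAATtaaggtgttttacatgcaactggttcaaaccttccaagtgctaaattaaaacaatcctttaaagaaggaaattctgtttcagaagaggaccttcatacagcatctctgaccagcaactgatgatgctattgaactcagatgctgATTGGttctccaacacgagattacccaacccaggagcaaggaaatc
TNFAIP3, chr6:137867009-137867258, plus strand: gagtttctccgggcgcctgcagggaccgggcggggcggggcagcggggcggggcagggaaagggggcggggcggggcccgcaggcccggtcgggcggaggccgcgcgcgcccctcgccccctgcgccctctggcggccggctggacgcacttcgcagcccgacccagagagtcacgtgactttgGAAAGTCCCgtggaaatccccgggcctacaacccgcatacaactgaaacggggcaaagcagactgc
IFI6 held 3 such matches, IFITM3 held 2 and IFITM1 held 1. GAAANNGAA lay in this window in 7.06% of 27305 RefSeq promoters, in 14 of the 23 interferon genes that rose and have an entry (of 33 that rose), and in 7 of 16 that were tested and did not rise. CCAAT lay in 33.0% of all promoters and in 8 of the 9 MHC class II genes that rose and have an entry. Among those that did not rise it lay in 3 of 5. GGGANTTTC lay in 1.15% of all promoters, in 3 of 7 NF-kappaB list members that rose and in 2 of 20 that did not. These are matches of letters and were not tested for binding.

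Luminal genes fell more often than genes in general in SK/EPI cells, while several that define the cell type did not fall. Of 26 luminal genes tested, 2 rose, 10 fell and 14 did neither, and their median log2 difference was -0.57 against 0.01 over all genes tested. FOXA1, a pioneer factor of luminal cells, was at 70.3, 72.2 and 76.3 against 6.88, 7.43 and 7.71 FPKM. All SK/EPI libraries lay far below all SK-BR-3 libraries (log2 difference of -3.15 ± 0.05 SE, limma adjusted p = 1.23e-09). SPDEF, an ETS factor of luminal and secretory cells, fell from 127, 116 and 122 to 3.63, 3.44 and 2.51 FPKM (log2 difference of -4.88 ± 0.10 SE, limma adjusted p = 4.87e-09). The disulfide isomerase AGR2 of secretory cells fell from 68.2, 62.5 and 63.6 to 2.15, 2.43 and 2.42 FPKM (log2 difference of -4.30 ± 0.05 SE, limma adjusted p = 3.28e-10). Each of these 3 genes was lower in every SK/EPI library than in any SK-BR-3 library. CA12, a membrane carbonic anhydrase, fell from 17.6 ± 0.745 to 0.132 ± 0.0491 FPKM, and MLPH, an adaptor of vesicle transport, from 47.2 ± 1.17 to 2.72 ± 0.222 FPKM. TFAP2A, TRPS1, XBP1 and TFF1 also fell, by log2 differences between -3.64 and -1.04. The 2 luminal genes that rose were EHF, an epithelial ETS factor, at 6.08 ± 0.446 against 39.6 ± 2.36 FPKM, and TBX3, a T-box repressor of mammary development, at 5.39 ± 0.245 against 12.5 ± 0.402 FPKM.

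Other defining luminal genes stayed within a factor of 2. GATA3, the zinc finger factor at the head of the luminal programme, was at 18.3, 18.9 and 19.8 against 20.3, 23.8 and 22.2 FPKM, a difference of 0.21 on the log2 scale (limma adjusted p = 0.0118). The simple keratin KRT8 was at 765 ± 30.3 against 902 ± 29.1 FPKM, and its partner KRT18 at 358 ± 9.03 against 601 ± 19.6 FPKM. Both were higher in every SK/EPI library than in any SK-BR-3 library, by 0.24 and 0.75 on the log2 scale. EPCAM, an epithelial adhesion molecule, was at 85.7, 85.3 and 88 against 86.5, 96.1 and 92.6 FPKM, and the libraries of the 2 lines overlapped (limma adjusted p = 0.106). KRT19, another simple keratin, did fall, from 1719, 1652 and 1581 to 498, 511 and 519 FPKM (log2 difference of -1.69 ± 0.06 SE, limma adjusted p = 7.04e-08).

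**Figure D1:**
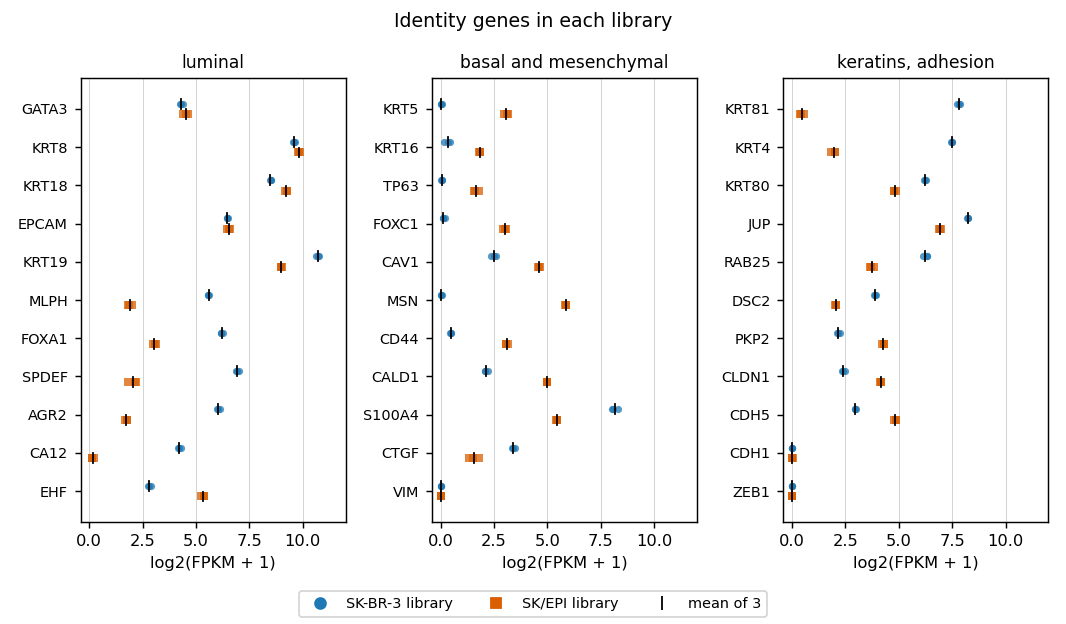
Identity genes by library, as log2(FPKM + 1) on the horizontal axis, with circles for the 3 SK-BR-3 libraries, squares for the 3 SK/EPI libraries and a tick for each mean. FOXA1, SPDEF, AGR2 and KRT81 lie far lower in SK/EPI cells, KRT5, TP63, MSN and CD44 lie higher, GATA3, KRT8 and EPCAM lie close together, and CDH1, VIM and ZEB1 lie at 0 in both lines.

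The basal and myoepithelial list moved the other way. Of its 15 members tested, 7 rose and none fell, with a median log2 difference of 0.91. With at least 10 reads required in every library 3 rose and none fell, while with a pseudocount of 0.1 10 rose and 2 fell, and with voom 11 and 2. KRT5, a keratin of basal cells, had 6 reads in all over the 3 SK-BR-3 libraries and was at 0.0587, 0 and 0.0245 against 6.76, 7.76 and 7.97 FPKM, a ratio of 284 in reads (95% exact counting interval 130.1 to 774). FOXC1, a forkhead factor of basal-type tumours, rose from 0.144, 0.0705 and 0.0669 to 7.42, 7.09 and 6.5 FPKM (log2 difference of 2.87 ± 0.07 SE, limma adjusted p = 8.78e-09). TP63, a transcription factor required in basal epithelium, remained low but was at 0.0169, 0.0520 and 0.0352 against 1.94, 2.45 and 2.01 FPKM. CAV1, the coat protein of caveolae, rose from 4.2, 4.57 and 5.07 to 22.2, 24 and 23.7 FPKM. The others were KRT16, at 0.356, 0.291 and 0.127 against 2.58, 2.46 and 2.61 FPKM, and the contractile genes TAGLN and MYLK, with log2 differences of 1.20 and 1.11. Among all 16 keratins tested, KRT5 and KRT16 were those that rose, while 6 fell. KRT80 fell from 75.1, 72.5 and 73.8 to 26.2, 26.6 and 28.5 FPKM, and KRT7 and KRT10 fell by 1.41 and 1.30 on the log2 scale. KRT81, a hair keratin that breast cancer lines can express, fell from 224 ± 11.7 to 0.366 ± 0.101 FPKM, and KRT4, a keratin of stratified epithelium, from 177 ± 2.04 to 2.89 ± 0.251 FPKM. KRT81 has near copies in the genome, so reads could have been shared among them.

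The epithelial marker CDH1 and the mesenchymal markers VIM and ZEB1 were near absent in both lines. CDH1, the epithelial cadherin, had at most 2 reads in any library of either line. VIM, the mesenchymal filament protein, had at most 2 as well, and ZEB1, a repressor of epithelial genes, had none, so none of these 3 could be tested. Of 39 epithelial adhesion genes, 2 rose, 3 fell and 34 did neither. The desmosomal plakophilin PKP2 rose from 3.5 ± 0.226 to 18.2 ± 0.787 FPKM and the tight-junction claudin CLDN1 from 4.25 ± 0.253 to 16.9 ± 0.292 FPKM. RAB25, an epithelial vesicle GTPase, fell from 77.6, 77.5 and 69.1 to 11.6, 13.1 and 12.1 FPKM (log2 difference of -2.51 ± 0.06 SE, limma adjusted p = 9.46e-09). DSC2, a desmosomal cadherin, fell from 13.8 ± 0.433 to 3.15 ± 0.0702 FPKM, and the plakoglobin gene JUP from 296 ± 5.5 to 122 ± 4.73 FPKM. The 14 mesenchymal genes tested divided evenly, with 5 up and 5 down. MSN, which links actin to the membrane, had 9 reads in all in SK-BR-3 cells and was at 0.0211, 0.0371 and 0.0264 against 56.3, 56.7 and 57 FPKM, a ratio of 1992 in reads (95% exact counting interval 1049 to 4356). CALD1, an actin-binding regulator of contraction, was at 3.4 ± 0.279 against 30.3 ± 0.185 FPKM, and the hyaluronan receptor CD44 at 0.386 ± 0.0254 against 7.53 ± 0.299 FPKM. FSTL1, a secreted glycoprotein, rose from 3.2, 3.31 and 3.51 to 17.4, 17.6 and 17.5 FPKM, and SNAI1, another repressor of epithelial genes, by 1.54 on the log2 scale. In the other direction S100A4, a calcium-binding protein of motile cells, fell from 319, 266 and 263 to 41.3, 43.1 and 42.6 FPKM. CTGF, a matricellular growth regulator, fell from 10.2, 9.35 and 9.09 to 1.53, 2.48 and 1.87 FPKM. The tropomyosin TPM2, the matrix protein TGFBI and the galectin LGALS1 had log2 differences of -1.67, -1.15 and -1.47.

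Signalling genes changed in both directions, and both directions were more frequent than in the background. Of 197 tested, 43 rose (21.8%) and 26 fell (13.2%), with a median log2 difference of 0.19. Receptor tyrosine kinases, which start growth-factor signalling at the membrane, gave 4 rises and 4 falls among 27. MET, the receptor for hepatocyte growth factor (ENSG00000105976, chr7:116672390-116798386, plus strand), was at 5.18, 5.35 and 5.51 against 121, 121 and 120.3 FPKM. Every SK/EPI library was far above every SK-BR-3 library (log2 difference of 4.26 ± 0.03 SE, limma adjusted p = 6.35e-11). PTK7, a pseudokinase receptor of planar polarity, rose from 0.943, 0.945 and 0.943 to 4.68, 4.68 and 4.71 FPKM. EPHB2, an ephrin receptor, was at 0.432 ± 0.0496 against 3.06 ± 0.191 FPKM and the insulin receptor INSR at 2.08 ± 0.213 against 6.62 ± 0.198 FPKM. FGFR4 fell from 8.77 ± 0.451 to 2.32 ± 0.177 FPKM and FGFR3, another fibroblast growth factor receptor, from 10.6 ± 0.272 to 3.79 ± 0.429 FPKM. The ephrin receptors EPHA4 and EPHB3 fell by 1.11 and 1.04 on the log2 scale. The ERBB partners and IGF1R stayed near their parental level. EGFR was at 34.1, 36.7 and 37.3 against 38.2, 38 and 37.6 FPKM (limma adjusted p = 0.115). ERBB3 was at 25.5 ± 0.806 against 29.7 ± 1.6 FPKM and IGF1R at 3.39 ± 0.181 against 2.79 ± 0.118 FPKM, differences of 0.21 and -0.21 on the log2 scale. AXL had too few reads to be tested, with 0.0245, 0 and 0 against 0.0792, 0.118 and 0.0725 FPKM.

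Among 31 growth factors and their binding proteins, 10 rose and 6 fell, and the PDGF ligands went opposite ways. With at least 10 reads required in every library 6 rose and 5 fell. PDGFA was at 0.0455, 0.0667 and 0.0379 against 9.82, 9.74 and 10.4 FPKM, a ratio of 199.5 in reads (95% exact counting interval 111 to 400.3). PDGFC rose with it, from 0.484, 0.505 and 0.451 to 5.85, 5.53 and 6.21 FPKM. By contrast PDGFB fell from 23.4 ± 1.18 to 4.74 ± 0.277 FPKM, and PDGFD from 6.74 ± 0.374 to 0.889 ± 0.109 FPKM. All 4 encode ligands of the PDGF receptors, and in none of them did the libraries of the lines overlap. FGF1, a ligand of every FGF receptor, rose from 0.0956, 0.147 and 0.199 to 13.2, 13.3 and 14 FPKM (log2 difference of 3.66 ± 0.06 SE, limma adjusted p = 1.56e-09). EPGN, an EGFR ligand, rose from 1.11 ± 0.145 to 10.3 ± 0.368 FPKM, whereas EGF itself fell from 6.4 ± 0.189 to 0.642 ± 0.120 FPKM. The EGFR ligands HBEGF, TGFA and BTC, the cytokine CSF1, FGF12 and IGFBP2 rose by 1.03 to 2.13 on the log2 scale. IGFBP3, which binds insulin-like growth factors, fell from 21.3, 22 and 22.5 to 1.84, 1.54 and 1.48 FPKM (log2 difference of -3.13 ± 0.06 SE, limma adjusted p = 3.69e-09). VEGFC and KITLG fell by 1.33 and 1.32 on the log2 scale.

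The ERK output list holds immediate-early genes and the feedback inhibitors that ERK induces. Of its 29 members tested, 8 rose and 3 fell. FOS, a subunit of the AP-1 factor, rose from 0.545, 0.581 and 0.795 to 5.29, 5.64 and 5.67 FPKM (log2 difference of 2.00 ± 0.07 SE, limma adjusted p = 9.92e-08). JUN, JUND, FOSL2 and DUSP1 rose by 1.02 to 1.48. PHLDA1 was at 0.599 ± 0.0438 against 4.85 ± 0.144 FPKM, the nuclear ERK phosphatase DUSP5 at 4.47 ± 0.424 against 15.9 ± 0.625 FPKM and the urokinase receptor PLAUR at 2.5 ± 0.421 against 9.61 ± 0.640 FPKM. Of the feedback inhibitors, DUSP4 fell from 23.3 ± 0.468 to 5.61 ± 0.312 FPKM and SPRY4 from 5.2 ± 0.0741 to 1.27 ± 0.123 FPKM. The ETS factor ETV1 had no read in any SK/EPI library and was at 1.0, 1.08 and 1.06 against 0, 0 and 0 FPKM, at least 190.2-fold lower in SK/EPI cells.

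**Figure D2:**
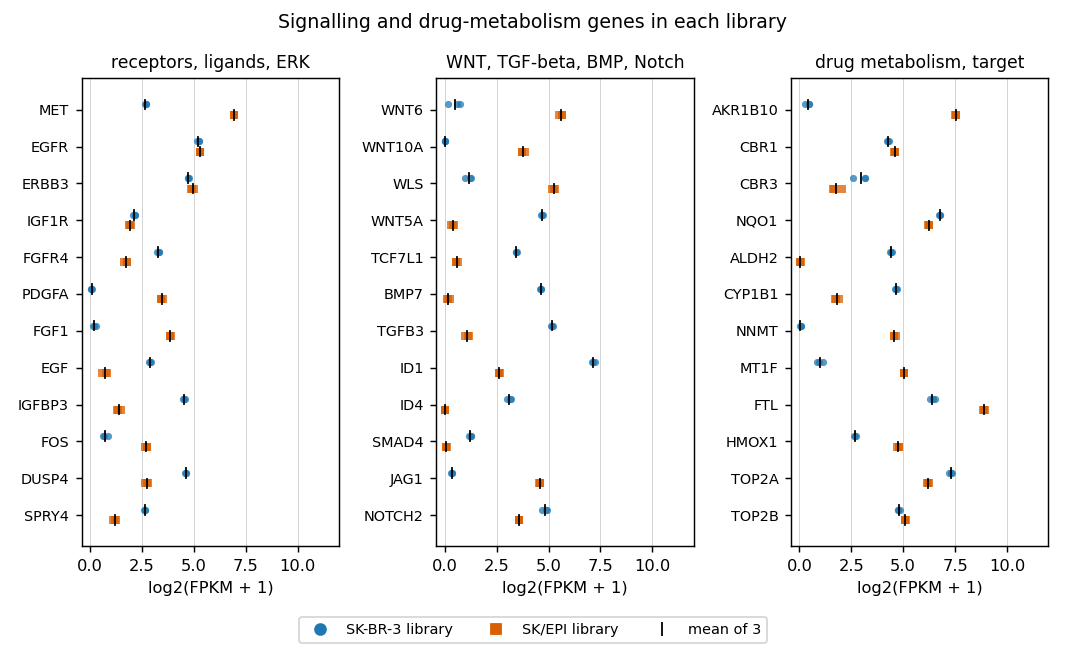
Signalling, drug-metabolism and drug-target genes by library, as log2(FPKM + 1), with circles for SK-BR-3 libraries, squares for SK/EPI libraries and a tick for each mean of 3. MET, WNT6, JAG1 and AKR1B10 lie far to the right in SK/EPI cells and WNT5A, BMP7, ID4 and ALDH2 far to the left, while EGFR, ERBB3 and TOP2B lie close together.

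WNT ligands moved in opposite directions. In the WNT list 10 of 38 tested rose and 3 fell, and the canonical ligands WNT6 and WNT10A were among the rises. The stricter filter on reads left 6 rises and 3 falls. WNT6 was at 0.111, 0.520 and 0.678 against 44.5, 48.9 and 49.4 FPKM (log2 difference of 5.10 ± 0.14 SE, limma adjusted p = 2.10e-08). WNT10A had 2 reads in all in SK-BR-3 cells and was at 0, 0.0162 and 0.0154 against 12.2, 12 and 13.4 FPKM, a ratio of 1132 in reads (95% exact counting interval 313 to 9351). WLS, the carrier that takes WNT proteins to the cell surface, rose from 0.987, 1.36 and 1.33 to 35.1, 38.5 and 36.9 FPKM. The secreted protein DKK3 had 1 read in SK-BR-3 cells against 5.41, 6.05 and 5.37 FPKM in SK/EPI cells. The ligand WNT9A, the receptors FZD2, FZD5 and FZD7 and the WNT inhibitors APCDD1 and NOTUM rose by 1.24 to 2.45. WNT5A, a ligand of the non-canonical branch (ENSG00000114251, chr3:55465715-55490539, minus strand), fell from 24.3, 24.1 and 25.6 to 0.297, 0.247 and 0.383 FPKM (log2 difference of -4.30 ± 0.06 SE, limma adjusted p = 5.55e-10). The nuclear partners of beta-catenin TCF7L1 and TCF7L2 fell from 9.81 ± 0.171 to 0.487 ± 0.0533 FPKM and from 4.83 ± 0.230 to 1.79 ± 0.154 FPKM.

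In the TGF-beta and BMP list 6 of 45 tested rose and 9 fell, and the falls held ID1, ID3 and ID4, direct targets of BMP signals. ID2, of the same family, had a log2 difference of -0.83, under the size of 1. ID1 was at 149.9, 134 and 140.4 against 5.3, 5.16 and 5.15 FPKM (log2 difference of -4.52 ± 0.04 SE, limma adjusted p = 1.56e-10). ID4 had 1 read in all in SK/EPI cells and was at 8.01, 7.91 and 6.88 against 0, 0 and 0.0228 FPKM, and ID3 fell with them. The ligand BMP7 fell from 24.1, 24.3 and 22.8 to 0.113, 0.194 and 0.0887 FPKM, a ratio of 181 in reads (95% exact counting interval 133 to 254). TGFB3, a TGF-beta ligand, fell from 36.1, 34.1 and 35.4 to 1.26, 1.17 and 0.934 FPKM (log2 difference of -4.10 ± 0.06 SE, limma adjusted p = 1.25e-09). BMP2, SMAD6, TGFBR1 and ID3 fell by log2 differences between -2.83 and -1.14. SMAD4, the mediator shared by both branches and looked at after its values were seen, was at 1.28, 1.37 and 1.39 against 0.0622, 0.0506 and 0.0407 FPKM, a ratio of 26.3 in reads between SK-BR-3 and SK/EPI cells (95% exact counting interval 19 to 37.4). Inhibitors and decoys were among the rises: the follistatin-like FSTL3 was at 2.38 ± 0.0368 against 14.3 ± 0.742 FPKM and the BMP antagonist CHRD at 0.101 ± 0.0426 against 3.2 ± 0.158 FPKM. GDF15, a stress-induced cytokine, rose from 2.72 ± 0.606 to 20.5 ± 0.655 FPKM, and the coreceptor TGFBR3 from 0.319 ± 0.0724 to 3.41 ± 0.108 FPKM. TGFBR2 and the protease BMP1 also rose, by 1.31 and 1.56.

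Of 28 Notch genes tested, 5 rose and 1 fell. The ligand JAG1 (ENSG00000101384, chr20:10637684-10673999, minus strand) was at 0.251, 0.292 and 0.260 against 22, 23.3 and 22.7 FPKM, and higher in all SK/EPI libraries (log2 difference of 4.22 ± 0.05 SE, limma adjusted p = 2.99e-10). MAML2, a coactivator of Notch, rose from 0.865 ± 0.104 to 4.92 ± 0.116 FPKM and the ubiquitin ligase DTX2 from 2.97 ± 0.112 to 8.31 ± 0.385 FPKM. NRARP, a feedback target, was at 2.56, 2.63 and 2.37 against 6.43, 8.07 and 6.97 FPKM. NOTCH1 rose by 1.18 on the log2 scale, while NOTCH2 fell from 24.9, 28.3 and 29 to 11.1, 11.1 and 10.7 FPKM.

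Immune genes held the highest share of rises. Of 193 tested, 81 rose, or 42.0%, and 12 fell, or 6.22%, against 7.87% and 6.53% of all genes, and the median log2 difference was 0.68, or 0.71 with unread genes at their bounds. With at least 10 reads required in every library 56 rose and 9 fell. These cells carried almost no leukocyte marker apart from CD14 (above) and CSF1R, whose mean was 2.81 FPKM in SK-BR-3 and 5.4 FPKM in SK/EPI cells. MHC class II rose most: 11 of 18 members rose and none fell, with a median of 1.69, or 1.90 with the genes that had no read in SK-BR-3 cells set at their bounds. With at least 10 reads required in every library, a filter that drops genes unread in SK-BR-3 cells, 3 rose. CIITA, the coactivator, was at 0.0880, 0.179 and 0.109 against 3.04, 3.31 and 3.2 FPKM (log2 difference of 1.89 ± 0.06 SE, limma adjusted p = 3.50e-08). CD74, the invariant chain (ENSG00000019582, chr5:150401637-150412929, minus strand), had 16 reads in all in SK-BR-3 cells and was at 0.0792, 0.0869 and 0.115 against 203, 219 and 221 FPKM, a ratio of 2259.7 in reads (95% exact counting interval 1391 to 3954). HLA-DRA, the alpha chain of HLA-DR, had 1 read in SK-BR-3 cells and stood at 77.6, 78.6 and 76.2 FPKM in SK/EPI cells. HLA-DPA1 had none there and stood at 18.3, 18.9 and 19.1 FPKM in SK/EPI cells, at least 1907-fold higher. HLA-DQB1 rose from 0.745, 0.881 and 0.814 to 12.7, 13 and 14.2 FPKM. HLA-DPB1, HLA-DRB1, HLA-DRB5, HLA-DQA1, HLA-DMA and HLA-DMB rose by 1.59 to 2.94. HLA genes are close copies that differ between people, so the split of reads among them is uncertain.

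MHC class I changed less. Of 23 members tested 5 rose and 1 fell. HLA-B, a heavy chain, rose from 3.63, 3.7 and 3.06 to 14.5, 15.4 and 15.4 FPKM. NLRC5, the class I counterpart of CIITA, rose from 0.265, 0.179 and 0.208 to 4.01, 4.03 and 4.17 FPKM (log2 difference of 2.06 ± 0.05 SE, limma adjusted p = 1.71e-08). B2M, the light chain, was already high and was at 84.7, 84.9 and 80.7 against 121, 124 and 125 FPKM, a difference of 0.56 that lay under the size of 1. PSMB10, an immunoproteasome subunit, and TAPBPL, a peptide editor, rose by 1.26 and 1.03. The NKG2D ligand ULBP3 fell from 2.17, 2.86 and 2.6 to 0.258, 0.392 and 0.486 FPKM.

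**Figure D3:**
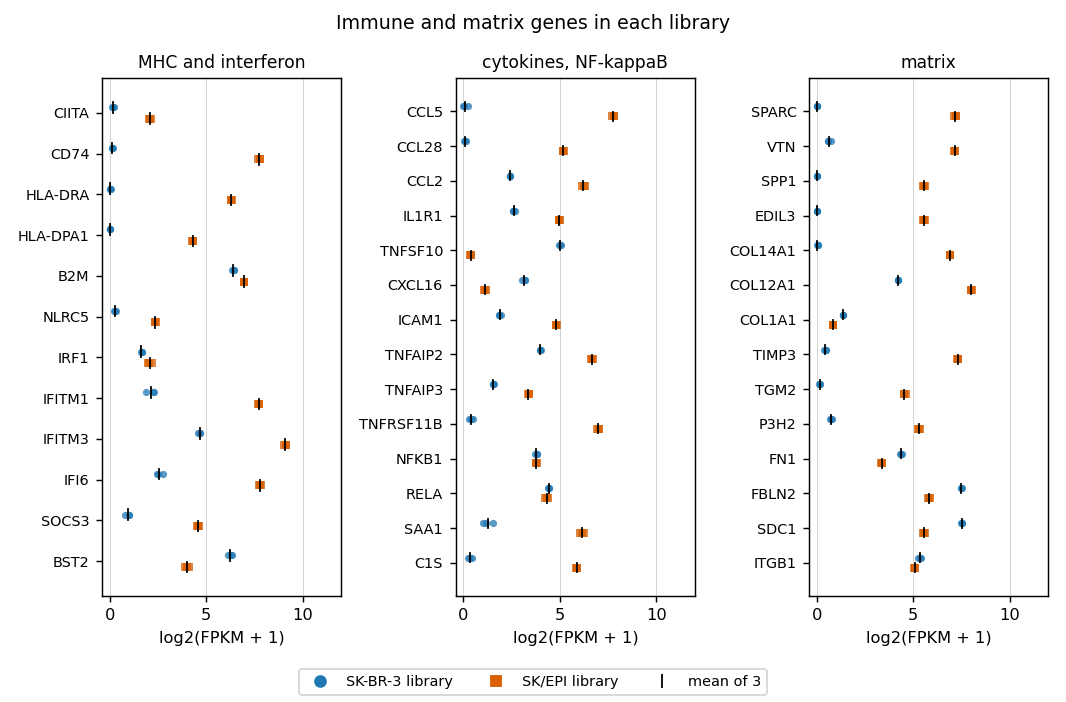
Immune and matrix genes by library, as log2(FPKM + 1), with circles for the 3 SK-BR-3 libraries, squares for the 3 SK/EPI libraries and a tick for each mean. CD74, HLA-DRA, CCL5, COL14A1 and SPARC are near 0 in SK-BR-3 cells and high in SK/EPI cells, BST2, TNFSF10, CXCL16, FBLN2 and SDC1 are lower, and NFKB1 and RELA coincide.

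Interferon-stimulated genes were the largest immune group. Of 57 tested, 33 rose in SK/EPI cells and 4 fell, with a median log2 difference of 1.29. IFITM1 and IFITM3 encode membrane proteins that block virus entry. IFITM1 was at 3.44 ± 0.670 against 208 ± 7.27 FPKM (log2 difference of 5.57 ± 0.10 SE, limma adjusted p = 2.97e-09), and IFITM3 at 24 ± 0.874 against 540.2 ± 19.1 FPKM (log2 difference of 4.43 ± 0.04 SE, limma adjusted p = 1.20e-10). These are close copies, so the split of reads between them is uncertain. Other genes share 32.5% of the exonic length of IFITM1 and 21.3% of that of IFITM3. IFI6, an interferon-induced membrane protein, was at 4.52, 5.63 and 4.55 against 212, 226 and 219 FPKM (log2 difference of 5.22 ± 0.07 SE, limma adjusted p = 6.77e-10). SOCS3, a feedback inhibitor of cytokine receptors, rose from 0.714, 0.992 and 0.999 to 21.8, 23.8 and 23 FPKM. The other 29 rose by 1.03 to 3.41. They include the RNA sensors DDX58 and DHX58, the adaptor TMEM173 (STING), the OAS1, OAS2, OAS3 and OASL enzymes, IFIT1, IFIT2, IFIT3 and IFIT5, ISG15, MX1, IRF7, IRF9 and the receptor IFNGR1. The upstream factor IRF1 did not reach the size of 1. It was at 2.12, 2.14 and 2.06 against 2.96, 3.09 and 3.47 FPKM, a log2 difference of 0.42.

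Some interferon-stimulated genes went against the group. BST2, a tether of budding virus, fell from 78.1, 77.8 and 69.1 to 13.9, 16.1 and 15.1 FPKM (log2 difference of -2.24 ± 0.06 SE, limma adjusted p = 2.71e-08). The exonuclease ISG20 fell from 3.08 ± 0.182 to 0.248 ± 0.0288 FPKM, the receptor chain IFNGR2 from 4.36 ± 0.0636 to 1.37 ± 0.00712 FPKM and the secreted glycoprotein LGALS3BP from 1091 ± 41.7 to 533 ± 20.7 FPKM. LGALS3BP was close to the size of 1 and dropped below it with voom (-0.95) and with scaling by nuclear reads (-0.93).

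Chemokines and cytokines were not a uniform group: 12 of 31 tested rose and 3 fell, or 7 and 2 with the stricter filter on reads. CCL5, which attracts T cells, had 6 reads in SK-BR-3 cells and was at 0, 0.0366 and 0.174 against 209.7, 222 and 224 FPKM. CCL28, a mucosal chemokine, rose from 0.0571 ± 0.0311 to 35.4 ± 0.393 FPKM (log2 difference of 5.11 ± 0.05 SE, limma adjusted p = 1.08e-10), and CCL2, which attracts monocytes, from 4.34 ± 0.0633 to 73.6 ± 3.87 FPKM (log2 difference of 3.80 ± 0.04 SE, limma adjusted p = 2.99e-10). IL1R1, the receptor for interleukin 1, was at 4.84, 5.39 and 5.03 against 30.7, 30.6 and 30.3 FPKM. The cytokines IL6, LIF, TNF, IL34 and CCL26 and the receptors CXCR4, IL4R and IL6ST rose by 1.06 to 2.26. TNFSF10, the death ligand TRAIL (ENSG00000121858, chr3:172505508-172523507, minus strand), fell from 31.6, 30.1 and 32.3 to 0.308, 0.255 and 0.323 FPKM (log2 difference of -4.64 ± 0.05 SE, limma adjusted p = 2.31e-10). CXCL16 and IL12A fell too, from 7.85 ± 0.587 to 1.18 ± 0.0936 FPKM and from 1.79 ± 0.188 to 0.0682 ± 0.0591 FPKM.

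The NF-kappaB list gave 8 rises and 1 fall among 33. The subunit NFKB1 was at 12.3, 12.8 and 13 against 12.9, 12.7 and 12.5 FPKM, with overlapping libraries (limma adjusted p = 0.992). RELA was at 20.7, 20.9 and 19.8 against 18.1, 18.9 and 20.1 FPKM, also with overlap (limma adjusted p = 0.0684). The members that rose encode targets and inhibitors of the pathway and, with NFKB2, another subunit. TNFRSF11B, the decoy receptor osteoprotegerin, was at 0.334, 0.411 and 0.223 against 122, 131 and 128 FPKM, a ratio of 396 in reads (95% exact counting interval 299 to 537). ICAM1, an adhesion molecule for leukocytes, rose from 2.72 ± 0.136 to 26.8 ± 0.528 FPKM, TNFAIP2 from 14.9 ± 0.140 to 101 ± 2.37 FPKM and the inhibitor TNFAIP3 from 1.93 ± 0.0374 to 9.35 ± 0.168 FPKM. NFKB2, NFKBIA, NFKBIZ and SOD2 rose by 1.02 to 1.54. MYD88, the adaptor of Toll-like and interleukin 1 receptors, fell from 108, 112 and 107 to 38.3, 39.5 and 40.6 FPKM (log2 difference of -1.44 ± 0.03 SE, limma adjusted p = 9.59e-09).

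In the list of complement and immune ligands 12 of 31 rose and 3 fell. The proteases that start the classical complement pathway rose together, C1S from 0.272 ± 0.0722 to 57.3 ± 0.186 FPKM and C1R from 1.12 ± 0.106 to 38.8 ± 1.11 FPKM. C3, CFB and the complement inhibitor CD55 rose as well. SAA1, an acute-phase protein whose reads may be shared with SAA2, was at 1.03, 1.95 and 1.25 against 65.6, 70.4 and 74.2 FPKM. SLPI, a protease inhibitor of mucosal secretions, was at 31.3, 24.4 and 22.7 against 299, 298 and 306 FPKM. VTCN1 (B7-H4), a ligand that inhibits T cells, fell from 82.2, 85.9 and 83.8 to 8.55, 9.21 and 9.15 FPKM (log2 difference of -3.09 ± 0.04 SE, limma adjusted p = 3.99e-10). CEACAM6, an adhesion molecule, and PIGR, the transporter of IgA, fell from 4.4 ± 0.161 to 0.0470 ± 0.0221 FPKM and from 3.22 ± 0.0217 to 0.361 ± 0.0683 FPKM.

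Matrix genes rose more often than the background, 35 of 132 tested (26.5%), and 14 fell (10.6%). The median log2 difference was 0.23, or 0.28 with unread genes at their bounds. Of 21 collagens, 6 rose and 1 fell. COL14A1, a fibril-associated collagen, had 9 reads in SK-BR-3 cells and was at 0, 0.0320 and 0.0243 against 118, 120.2 and 119.8 FPKM, a ratio of 6076 in reads (95% exact counting interval 3200.4 to 13288). COL12A1, of the same type, was already expressed and rose from 17.6, 17.4 and 17.7 to 260.0, 251 and 252 FPKM (log2 difference of 3.78 ± 0.03 SE, limma adjusted p = 8.23e-11). COL4A5, a basement-membrane chain, rose from 0.574, 0.481 and 0.633 to 11.2, 11.5 and 11.1 FPKM. COL9A3, COL16A1 and COL4A6 rose by 1.69, 1.66 and 1.12. The main fibrillar collagen COL1A1 was low in both lines, at 1.57 ± 0.0274 against 0.794 ± 0.0240 FPKM, and COL5A2 fell from 1.67 ± 0.132 to 0.200 ± 0.0196 FPKM.

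Of 44 glycoproteins and proteoglycans, 15 rose and 4 fell, or 9 and 4 with at least 10 reads in every library. SPARC, a collagen-binding matricellular protein, had 3 reads in SK-BR-3 cells and was at 0.0130, 0.0115 and 0.0109 against 137, 146 and 145 FPKM. VTN, the adhesion protein vitronectin, rose from 0.493, 0.662 and 0.476 to 136, 143 and 144 FPKM (log2 difference of 6.52 ± 0.05 SE, limma adjusted p = 8.47e-11). SPP1, osteopontin, had no read in SK-BR-3 cells and stood at 44, 48.1 and 46.1 FPKM in SK/EPI cells, at least 1885-fold higher. EDIL3, an integrin ligand, had 1 read there against 46.4, 47.5 and 44.6 FPKM in SK/EPI cells. A further 11 rose by 1.18 to 5.01, among them the laminin chains LAMC1, LAMB3, LAMA4 and LAMA5, MGP, SRGN, FBLN1 and EFEMP1. Carriers of heparan sulfate were among the falls: SDC1, a cell-surface proteoglycan, fell from 180.1 ± 4.44 to 46.3 ± 2.05 FPKM, and HSPG2, perlecan, from 22.4 ± 0.831 to 5.82 ± 0.205 FPKM. FBLN2, a fibulin, fell from 185, 176 and 176 to 53.6, 56.2 and 55.1 FPKM (log2 difference of -1.69 ± 0.03 SE, limma adjusted p = 5.30e-09). FN1, fibronectin, was at 18.9, 20.5 and 19.4 against 9.0, 9.19 and 9.39 FPKM, a difference of -1.01 that fell short of a size of 1 under both other scalings and without SK-BR-3 replicate 2 (-0.98).

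Remodelling enzymes and integrins moved in both directions. Of 49 remodelling genes 12 rose and 7 fell. TIMP3, an inhibitor of metalloproteinases held in the matrix, was at 0.274, 0.385 and 0.365 against 152, 161 and 157 FPKM (log2 difference of 6.88 ± 0.04 SE, limma adjusted p = 3.03e-11). P3H2, a collagen prolyl hydroxylase, rose from 0.688 ± 0.0616 to 38.1 ± 1.17 FPKM, the cross-linking transglutaminase TGM2 from 0.112 ± 0.0221 to 22.2 ± 0.821 FPKM and the metalloproteinase MMP24 from 0.357 ± 0.0649 to 21.4 ± 1.12 FPKM. TIMP1, LOXL2, HAS3, PLAT, MMP16, ADAM12 and BMP1 rose by 1.03 to 2.81. The sheddases ADAM19 and ADAM15 fell, from 4.04 ± 0.0703 to 0.106 ± 0.0200 FPKM and from 66.7 ± 1.48 to 19.6 ± 0.613 FPKM. P4HA2, another prolyl hydroxylase, fell from 2.88 ± 0.110 to 0.224 ± 0.0699 FPKM and the hyaluronidase HYAL1 from 9.17 ± 0.851 to 2.38 ± 0.197 FPKM. Among 18 integrins, ITGB8 rose from 0.0403 ± 0.0162 to 5.19 ± 0.229 FPKM and ITGA6 from 0.0602 ± 0.0191 to 3.33 ± 0.251 FPKM, while ITGB6 fell from 12.5 ± 0.356 to 2.17 ± 0.0614 FPKM and ITGB4 from 23.8 ± 0.705 to 10.3 ± 0.250 FPKM. ITGB1, the common beta chain, was at 37.4, 39.6 and 41.3 against 32.4, 33.5 and 31.7 FPKM (log2 difference of -0.27 ± 0.04 SE, limma adjusted p = 5.82e-04).

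Drug-metabolism genes held large single changes around a median near 0. Of 175 genes tested 35 rose (20%) and 19 fell (10.9%), with a median log2 difference of 0.03. In the list of aldo-keto and carbonyl reductases, which also holds POR, 21 were tested, 4 rose and 4 fell. With at least 10 reads in every library 1 rose and 4 fell, and the 1 that rose was POR. AKR1B10, which reduces retinal and other carbonyls, had 30 reads in SK-BR-3 cells and was at 0.397, 0.222 and 0.361 against 178, 183 and 188 FPKM, a ratio of 563 in reads (95% exact counting interval 394 to 835). AKR1B1, aldose reductase, rose from 0.0617 ± 0.0286 to 5.97 ± 0.364 FPKM, and AKR1B15, a close copy of AKR1B10, from 0.169 ± 0.0718 to 5.02 ± 0.380 FPKM. The P450 electron donor POR, which also reduces anthracyclines at the quinone, was at 50.9, 52.3 and 49.3 against 101, 105 and 106 FPKM (log2 difference of 1.02 ± 0.04 SE, limma adjusted p = 8.14e-08) and lay just under the size of 1 without SK-BR-3 replicate 3 (0.9975). Of the further reductases CBR1, CBR3, AKR1C3 and AKR1A1, none was called as risen in the main fit. CBR1 was at 18.3 ± 0.744 against 23.2 ± 0.346 FPKM (log2 difference of 0.33 ± 0.04 SE, limma adjusted p = 8.66e-05) and CBR3 at 6.99 ± 1.74 against 2.47 ± 0.611 FPKM (log2 difference of -1.19 ± 0.18 SE, limma adjusted p = 4.84e-04), with 42.2% of the exonic length of CBR3 shared with another gene. AKR1C3 stayed under 1 FPKM, at 0.00772 ± 0.0134 against 0.202 ± 0.0397 FPKM, and AKR1A1 fell from 36.7 ± 2.09 to 15.8 ± 1.17 FPKM.

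For AKR1C3 the call depended on the scale. Its 2 reads in SK-BR-3 cells and 52 in SK/EPI cells gave a ratio of 24.4 in reads (95% exact counting interval 6.43 to 207), but only 0.25 on the log2(FPKM + 1) scale. With a pseudocount of 0.1 it rose by 1.49, and with voom by 4.35. In SK/EPI-siControl cells of the second table AKR1C3 was at 1.38 to 1.73 FPKM. The aldehyde reductase AKR7A3 and the retinal reductase DHRS3 also fell, from 10.01 ± 0.923 to 1.01 ± 0.0980 FPKM and from 35.7 ± 0.769 to 11.6 ± 0.526 FPKM. NQO1, a quinone reductase, was at 109, 110.1 and 105 against 74.6, 72.7 and 75 FPKM, a difference of -0.54.

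Of 35 cytochromes P450 and other oxidases 9 rose and 3 fell, but 3 rose and 3 fell with at least 10 reads required in every library. CYP4B1 was at 1.57 ± 0.0865 against 24.6 ± 1.08 FPKM (log2 difference of 3.32 ± 0.05 SE, limma adjusted p = 1.11e-09), and CYP2S1 at 0.0198 ± 0.00189 against 7.04 ± 0.937 FPKM. CYP4F11 and CYP11A1 also rose, to 3.59, 3.74 and 3.31 FPKM in SK/EPI cells and to 2.56, 2.49 and 3.5 FPKM in SK/EPI cells. The aryl hydrocarbon receptor targets split: CYP1A1 and CYP1A2 rose by 1.06 to 1.92 together with CYP26A1, MAOA and CYP4F8, whereas CYP1B1 fell from 23.9 ± 0.679 to 2.48 ± 0.265 FPKM (log2 difference of -2.84 ± 0.06 SE, limma adjusted p = 5.74e-09) and the receptor's repressor AHRR from 4.06 ± 0.0885 to 0.922 ± 0.0471 FPKM. CYP2R1, a vitamin D hydroxylase, fell from 2.55, 2.72 and 2.2 to 0.700, 0.723 and 0.579 FPKM. Aldehyde and alcohol dehydrogenases and esterases gave 3 rises and 2 falls among 27. ALDH2, the mitochondrial acetaldehyde dehydrogenase (ENSG00000111275, chr12:111766887-111817529, plus strand), was at 19.8, 21 and 20.6 against 0.0105, 0.0114 and 0.0384 FPKM, a ratio of 1020.3 in reads between SK-BR-3 and SK/EPI cells (95% exact counting interval 570.0 to 2044). EPHX1, the microsomal epoxide hydrolase, fell from 52.1, 49.5 and 49.1 to 19.9, 19.6 and 20.2 FPKM. ALDH5A1 rose from 0.454 ± 0.0763 to 6.91 ± 0.412 FPKM, ALDH1A2 from 0.0366 ± 0.0147 to 2.36 ± 0.0780 FPKM and ALDH8A1 from 0 ± 0 to 1.66 ± 0.114 FPKM.

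Conjugating enzymes gave 6 rises and 4 falls among 28. NNMT, which methylates nicotinamide, had 5 reads in SK-BR-3 cells and was at 0.0432, 0.0379 and 0.0180 against 22.4, 22.3 and 23.8 FPKM (log2 difference of 4.53 ± 0.05 SE, limma adjusted p = 2.99e-10). UGT8, which makes galactosylceramide, rose from 0.188 ± 0.0468 to 13 ± 0.178 FPKM, and UGT1A7, which shares 40.6% of its exonic length with other genes of its locus, from 1.13 ± 0.109 to 11.7 ± 0.271 FPKM. The cholesterol sulfotransferase SULT2B1 was at 1.07, 0.706 and 0.781 against 7.05, 7.47 and 8.57 FPKM. The sulfotransferases SULT1A1 and SULT1A2, which are close copies, fell by 1.13 and 2.22 on the log2 scale. The methyltransferase TPMT fell from 18.6, 18.7 and 20.7 to 6.61, 7.18 and 6.88 FPKM. GSTP1, a glutathione transferase often tied to drug resistance, had at most 1 read in any library and could not be tested. UGT2B7, the enzyme that glucuronidates epirubicin and looked at after its values were seen, had at most 2 reads in any library.

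Of 38 antioxidant and metallothionein genes 10 rose and 5 fell, although the median log2 difference was -0.25 and by adjusted p alone 15 were higher and 21 lower. The metallothionein MT1F, which binds zinc and copper, was at 0.934, 1.23 and 0.806 against 31.8, 31.5 and 32.4 FPKM (log2 difference of 4.05 ± 0.08 SE, limma adjusted p = 3.27e-09). FTL, the ferritin light chain, was at 91.5, 77.1 and 84.2 against 454, 482 and 491 FPKM (log2 difference of 2.49 ± 0.06 SE, limma adjusted p = 1.63e-08), and FTH1, the heavy chain, also rose. HMOX1, which degrades haem, rose from 5.39 ± 0.220 to 26 ± 0.808 FPKM, and GPX8 from 0.185 ± 0.0381 to 3.08 ± 0.239 FPKM. GPX2 and GPX3, glutathione peroxidases, fell from 5.61 ± 1.02 to 0.400 ± 0.0725 FPKM and from 25.7 ± 0.256 to 11 ± 0.430 FPKM. SOD3 was at 2.1 ± 0.380 against 0.330 ± 0.188 FPKM, and MT2A at 226 ± 26.6 against 103 ± 10.3 FPKM. NFE2L2, the master factor of this response, was at 9.32 ± 0.204 against 14.5 ± 0.221 FPKM and its repressor KEAP1 at 13.6 ± 0.354 against 17.1 ± 0.663 FPKM, both within a factor of 2. Metallothioneins are short, similar genes, and reads could have been shared among them.

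Drug transporters other than ABCB1 and ABCG2 gave 3 rises and 1 fall among 26. ATP7B, a copper pump, was at 1.94, 1.64 and 1.53 against 13.6, 13.8 and 14 FPKM (log2 difference of 2.46 ± 0.06 SE, limma adjusted p = 1.45e-08). ABCG1, a sterol exporter, rose from 1.94 ± 0.263 to 6.71 ± 0.315 FPKM and SLCO4A1, an organic anion carrier, from 13.7 ± 0.758 to 31.3 ± 0.312 FPKM. ABCC11, a pump for lipophilic anions, had 3 reads in all in SK/EPI cells and was at 2.12, 1.93 and 2.33 against 0, 0.00764 and 0.0147 FPKM.

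The targets of the drug and genes of the response to DNA damage gave 5 rises and 3 falls among 32. TOP2A, the topoisomerase that anthracyclines trap in dividing cells (ENSG00000131747, chr17:40388516-40417950, minus strand), was at 147, 159 and 161 against 74.7, 70.8 and 72.4 FPKM (log2 difference of -1.09 ± 0.04 SE, limma adjusted p = 1.78e-07), and with scaling by nuclear reads the difference was -0.99. TOP2B, the form of all cells, was at 25.9, 26.3 and 28.1 against 33.8, 32.7 and 33.1 FPKM (log2 difference of 0.30 ± 0.04 SE, limma adjusted p = 1.64e-04). The damage-response genes did not move as a unit: ZMAT3 rose from 1.83 ± 0.0885 to 19.7 ± 0.424 FPKM, BTG2 from 2.85 ± 0.130 to 14.5 ± 0.748 FPKM and the apoptosis gene BBC3 from 2.43 ± 0.207 to 6.54 ± 0.246 FPKM, but the cell-cycle inhibitor CDKN1A fell from 5.18 ± 0.0927 to 1.51 ± 0.150 FPKM (log2 difference of -1.30 ± 0.06 SE, limma adjusted p = 4.60e-07). DDB2, a damage-recognition factor, fell from 4.93, 4.83 and 4.51 to 1.75, 1.71 and 1.94 FPKM.

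**Figure D4:**
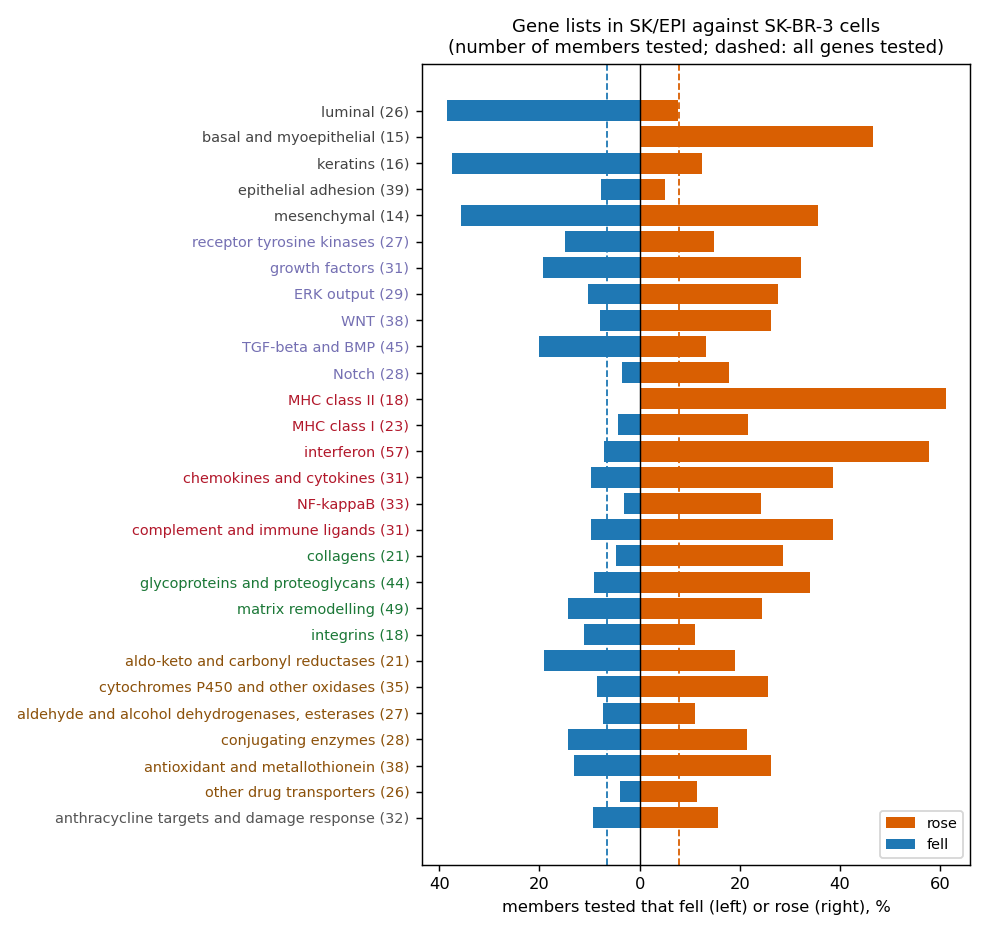
Share of each gene list that fell (left) or rose (right) in SK/EPI cells, in percent of the members tested, whose number stands beside each name; dashed lines give the 6.53% that fell and 7.87% that rose among all 15823 genes tested. MHC class II, at 61.1%, and the interferon list, at 57.9%, have the longest bars to the right, and the luminal list, at 38.5%, the longest to the left.

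The genes with the largest changes over the whole table, leaving out ABCB1 and ABCG2, included members of the lists above and others that no list held. Those that rose were ALPP, a placental alkaline phosphatase with close copies, at 2.18, 3.15 and 3.0 against 475, 482 and 449.6 FPKM, and LRP2, the endocytic receptor megalin, at 84.5, 81.6 and 81 FPKM in SK/EPI cells against 2 reads in all in SK-BR-3 cells. GPHA2, a glycoprotein hormone subunit, and the actin bundler FSCN1 stood at 87.1, 89.3 and 95.1 FPKM in SK/EPI cells and at 0.700, 0.735 and 0.654 against 133, 137 and 136 FPKM. Those that fell were FBP1, an enzyme of gluconeogenesis, BCAS1, GALNT17, the carboxypeptidase CPE, GPR160, LYPD3 and the antisense RNA DSCAM-AS1. GPR160 fell from 29.5, 28.9 and 29.2 to 0.240, 0.161 and 0.228 FPKM (log2 difference of -4.64 ± 0.05 SE, limma adjusted p = 2.12e-10). CPE, which trims peptide hormones, fell from 40 ± 2.31 to 0.214 ± 0.0730 FPKM (log2 difference of -5.08 ± 0.06 SE, limma adjusted p = 4.71e-10), and LYPD3 from 90.1 ± 7.44 to 2.9 ± 0.516 FPKM. The library kit does not mark strand, so the counting could not use it. DSCAM-AS1 shares 0% of its exonic length with other genes, so only reads from their introns could be mixed with its own.

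**Figure D5:**
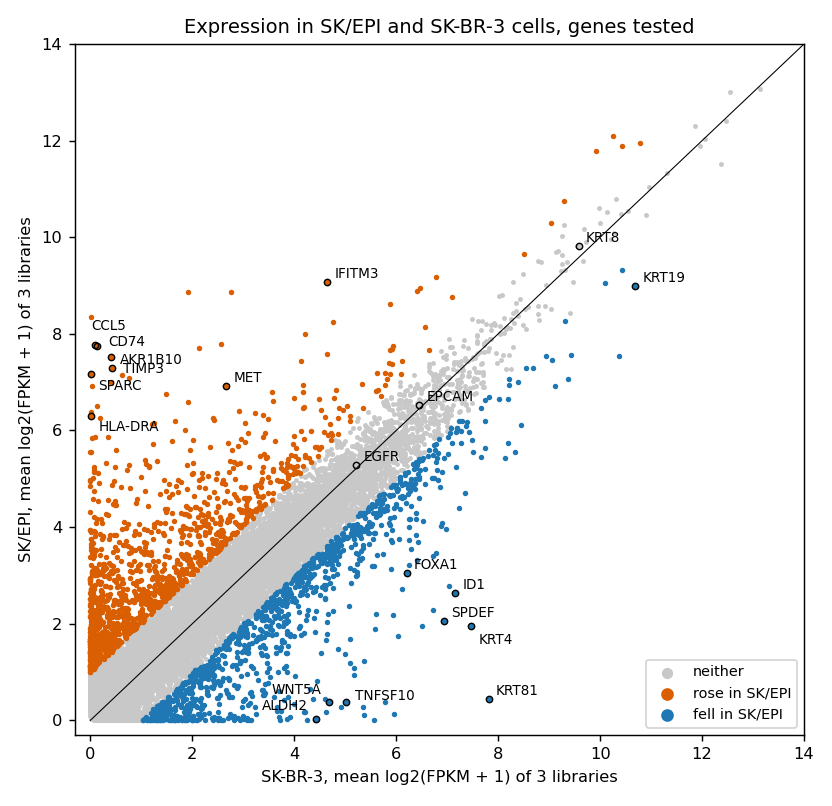
Mean log2(FPKM + 1) of 3 SK-BR-3 libraries (horizontal) and 3 SK/EPI libraries (vertical) for the genes tested, with 1245 that rose, 1033 that fell and the remaining genes in grey; sex-linked markers are not drawn. CD74, CCL5, SPARC and HLA-DRA lie on the left edge, KRT81, ALDH2 and WNT5A on the lower edge, and KRT8, EPCAM and EGFR near the line of equal expression.

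SK/EPI cells of the second table, given a control siRNA, were looked at side by side and not tested, since their values were normalized in another table. Of the 1245 genes that rose, 1225 (98.4%) had all 3 SK/EPI-siControl libraries above all 3 SK-BR-3 libraries. For the 1033 that fell, 1023 (99.0%) had all 3 below. Of the called members of the lists, 91 of 93 immune genes (97.85%) and 51 of 54 drug-metabolism genes (94.4%) lay on the same side. All 69 signalling, 49 matrix and 39 identity genes did so. The same 3 SK-BR-3 libraries had given the calls, so these shares are not an independent check. Only the side was counted, and levels could differ widely, as in 3 genes picked after their values were seen. From SK/EPI to SK/EPI-siControl cells, CCL5 went from 209.7 to 224 FPKM down to 54.1 to 55.7 FPKM. CD14 was at 26.6 to 28.1 against 6.12 to 7.24 FPKM. HLA-B was higher instead, at 14.5 to 15.4 against 120.3 to 121.3 FPKM. The 5 exceptions among the called members are named here after their values were seen. BST2 fell to 13.9 to 16.1 FPKM in SK/EPI cells but was at 78.2 to 81.4 FPKM in SK/EPI-siControl cells, at or above its SK-BR-3 level of 69.1 to 78.1 FPKM. IL6ST, the signalling chain of the interleukin 6 receptor, was at 8.56 to 10.3 FPKM in SK-BR-3, 19.8 to 21.1 FPKM in SK/EPI and 10.1 to 10.2 FPKM in SK/EPI-siControl cells. ABCG1 was at 1.75 to 1.92 FPKM in SK/EPI-siControl cells, within its range of 1.64 to 2.13 FPKM in SK-BR-3 cells. MT2A was at 263 to 323 FPKM in SK/EPI-siControl cells against 91.5 to 109 FPKM in SK/EPI cells. MT1G, another metallothionein, was listed at 0 in all 3 SK/EPI-siControl libraries and at 3.13 to 3.62 FPKM in SK/EPI cells. Genes that were not called were not counted here, and some are given after their values were seen. GATA3 at 12.1 to 13.3, TOP2B at 12.4 to 13.5 and NQO1 at 151 to 153 FPKM in SK/EPI-siControl cells lay on the other side of SK-BR-3 than in SK/EPI cells. KRT8, KRT18 and B2M lay on the same side.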

How the data were processed

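RNA was taken from SK-BR-3 and SK/EPI cells in 3 preparations each, and poly-A selected libraries, made with a kit that does not mark strand, were sequenced by NovoGene. The authors deposited FPKM values for 58735 genes in 1 table for these 6 libraries, and in a second table for the siRNA libraries. The submitters' processing notes name HISAT2 2.0.5, featureCounts 1.5.0-p3, DESeq2 1.16.1 and hg38, without saying how each was used, and how reads with several positions were counted is not given in the sources used here. FPKM multiplied by the merged exon length in GENCODE 29 (Ensembl 94) gave reads per gene, since in each library the products were multiples of 1 step, within 0.01 of a whole number for 100% of the values above 0. Since the values are FPKM, the count model that the design named for raw counts was not the main test. Gene coordinates are those of GENCODE 29 on GRCh38.

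A gene was kept if 3 or more libraries had 10 or more reads, scaled to the median library, and the 6 together had 15 or more. The 15823 kept were fitted with limma 3.58.1 (lmFit, eBayes with trend) in R 4.3.3 on log2(FPKM + 1), a scale that understates the change of low genes, and p-values were adjusted by Benjamini-Hochberg over all of them. Reads on genes came to 99.8% to 101% of the authors' FPKM denominator in SK-BR-3 cells and to 92.8% to 95.4% in SK/EPI cells, and genes of the mitochondrial chromosome took 4.18% to 4.23% and 5.10% to 5.38% of the reads. Replicates differed by more than counting noise (chi-square per degree of freedom 1.64 to 4.27). Each library was counted as a sample, although this spread does not show that the libraries came from separate cultures. Ratios of reads compare the summed reads of a group after scaling to library size, with exact 95% intervals for counting error only. Where the lower group had no read, 3 reads over the group gave a lower bound. Python 3.11.15 with pandas 2.3.3, scipy 1.17.1 and matplotlib 3.10.9 did the rest, and the fit was checked on simulated data.

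The gene lists and the members described were chosen with earlier results of these data known. For each list, up to 4 genes with the largest rise and 4 with the largest fall were named, among called genes whose higher line averaged 1 FPKM or more, plus 38 defining genes (some named genes are not reported here), and over the whole table the 12 largest rises and falls with at least 10 FPKM and no overlap. CCN1 and CCN2 are listed under older symbols, of which only CTGF was described. Alternatives were other filters, a pseudocount of 0.1, other scalings, voom on reads, other thresholds, the replicate number as a block and leaving out each library. Promoter sequences are from RefSeq.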

Additional observations from a re-analysis of the deposited data

How the results depend on the processing

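Counts of called genes moved most with the fold threshold and the scale of low genes. By adjusted p alone 6002 genes rose and 5852 fell over the table. The same change gave 45 rises and 49 falls for identity, 106 and 69 for signalling, 133 and 36 for immune, 73 and 42 for matrix, 77 and 75 for drug-metabolism and 18 and 8 for drug-target genes. With a pseudocount of 0.1, 2416 rose and 1798 fell, with 66 rises for signalling and falls of 26 for matrix and 32 for drug metabolism. With voom, 2921 rose and 1805 fell. Under voom the rises were 75 for signalling, 62 for matrix, 55 for drug metabolism and 9 for drug-target genes, and the falls were 29 for matrix and 32 for drug metabolism. With at least 10 reads in every library, which leaves 13175 genes, 843 rose and 846 fell, and 22 matrix and 21 drug-metabolism genes rose. Under that filter 56 immune genes rose and 9 fell. The members it left in each list were not counted, so these counts have no share of their own. Scaling by nuclear reads left 1 fall among drug-target genes, because TOP2A and DDB2 then lay under the size of 1.

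Leaving out each library in turn gave 1228 to 1253 rises and 1017 to 1062 falls. No gene named singly that was called changed direction under any of these settings. FN1, TOP2A, EPHB3, TCF7L2, LGALS3BP, DDB2 and POR, all near the size of 1, lost their call under at least 1 setting, and EPHB3 did so without SK/EPI replicate 1. In small lists the order of rises and falls depended on the setting. Integrins gave 5 and 6 with voom, antioxidant genes 15 and 21 by adjusted p alone, and reductases 1 and 4 with at least 10 reads in every library.

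Same-numbered libraries of the lines did not deviate together (correlations of deviations -0.0356, -0.00237 and -0.0504 over 15823 genes). Whether they were prepared or sequenced together was not tested. With the replicate block 1245 genes rose and 1033 fell.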

Other observations

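The share of tested genes that rose or fell differed between chromosomes, and is given as a description without a test, since neighbouring genes are not independent. On chromosome 13, 14.7% of 266 genes fell and 4.89% rose, with a median log2 difference of -0.32. On chromosome 1, 10.3% of 1601 genes fell, with a median of -0.27, and on chromosome 22, 9.74% of 421 fell, with a median of -0.245. The medians of chromosomes 14 and 5 were 0.18 and 0.16. On chromosome X, 13.8% of 536 genes rose and 5.22% fell. The part of DNA copy number in these values was not tested.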
